A study of Homo sapiens with 12 samples.

Results

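The genes described here are the ligand FGF19, the FGF receptors FGFR2, FGFR3 and FGFR4, the co-receptor KLB, the bile acid synthesis enzymes CYP7A1, CYP8B1 and CYP27A1, and the nuclear receptors NR1H4 and NR0B2. They were matched by symbol, and all 10 were found among the 27249 genes with an Ensembl identifier in each table. The genes were selected with their measured values in these samples known, so their levels and changes are given as a description, without a p-value. RNA was sequenced from 2 human liver cancer cell lines, Huh7 and HepG2, with 3 samples in each of the 4 groups. The resistant cells of each line carried the WT genotype and had been selected by repeated exposure to sorafenib, a multikinase inhibitor, from a first dose of 10 μmol that was raised stepwise over 8 months. The parental cells were of the same line and WT genotype and received no drug. Nothing in the sources used here says whether the 3 samples of a group were separate cultures, whether each resistant line was 1 clone, or whether sorafenib was in the medium at harvest. Any p-value below therefore measures only the spread between these samples, which may be technical.

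In the liver and gut, FGF19 is the hormone of a feedback loop on bile acid synthesis. Bile acids bind the nuclear receptor FXR, encoded by NR1H4, which induces FGF19 in the ileum and SHP, encoded by NR0B2, in the liver. FGF19 signals to hepatocytes through FGFR4 with beta-klotho, the product of KLB, and both arms lower CYP7A1, the rate-limiting enzyme of the classic pathway.

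Levels are given as FPKM, reads or fragments per kilobase of gene scaled to the depth of the library, so that levels of different genes can be compared. The value of each gene could be turned back into reads, and 12290126 to 19285958 reads lay behind a sample. Resistant libraries were deeper: 18972392 to 19285958 against 16158300 to 17944448 reads in Huh7, and 16935539 to 18281766 against 12290126 to 15728850 in HepG2. Ensembl genes held 85.5% to 87.7% of all FPKM in resistant and 74.5% to 79.6% in parental Huh7. In HepG2 this share was 79.3% to 83.4% and 83.8% to 84.9%. The part of these library differences in the changes was not tested. All 11 hepatocyte markers had a mean of at least 1 FPKM in each group, as the labelled cell type requires, and their summed level was between 6791 and 10659 FPKM in a sample. The summed level of 9 stromal and endothelial markers was at most 8.27 FPKM, and that of 7 immune markers at most 9.64 FPKM. Genes were called by limma at an adjusted p (Benjamini-Hochberg, over all genes tested) below 0.05 together with a change of over 1 on the log2(FPKM + 1) scale, which understates changes of low genes. Across all genes, the log2 fold change in Huh7 was higher for genes richer in GC (Spearman's rho 0.62 over 12545 genes), whereas in HepG2 rho was 0.04 over 11756 genes. Over all genes tested, the median change was -0.04 in Huh7 and 0.12 in HepG2 on this scale. In Huh7, 8 of the 10 genes were abundant enough to be tested, and FGF19 was the 1 gene called higher, beside 8.59% of all genes. A lower call was given to 14.0% of all Huh7 genes. In HepG2, 6 of the 10 genes were tested. FGFR4 was the 1 gene called higher, beside 3.29% of all genes, and NR0B2 the 1 called lower, beside 2.98%.

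**Figure D1:**
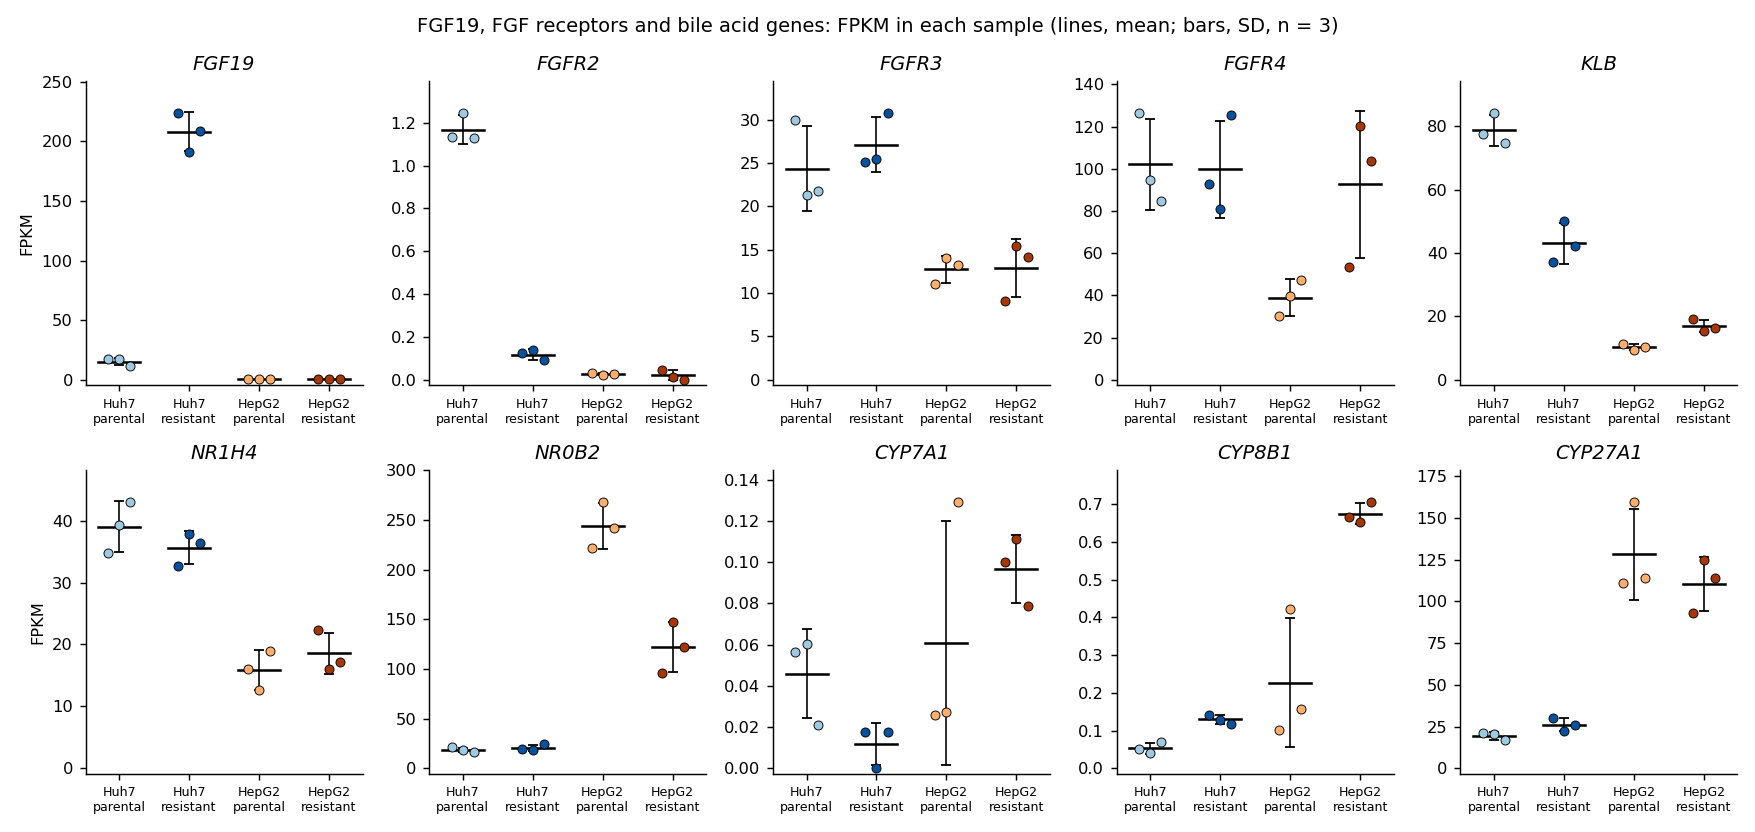
FPKM of the 10 genes (1 panel each, linear axis) in the 4 groups. Points are the 3 samples, lines the mean and bars the SD; FGF19 is near 208 FPKM in resistant Huh7 and below 1 FPKM in HepG2, KLB is lower in resistant Huh7 and higher in resistant HepG2, and CYP7A1 and CYP8B1 stay below 1 FPKM throughout.

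FGF19, on the minus strand of chr11:69698232-69704642 (GRCh38), showed the largest difference among the 10 genes. In resistant Huh7 it stood at 224, 191 and 209 FPKM, against 17.3, 17.1 and 11.5 FPKM in the parental cells. The groups did not overlap, and their means of 208 ± 16.4 and 15.3 ± 3.28 FPKM (SD, n = 3) differed 13.6-fold. These values rested on 9017 to 10394 reads in resistant and 454 to 758 reads in parental samples. By mean FPKM, FGF19 ranked 126th of the 27249 genes in resistant Huh7 and 2797th in parental Huh7. In bulk RNA, more cells that make FGF19 and more FGF19 RNA in each cell cannot be told apart.

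HepG2 cells contained little FGF19 RNA in either state. The resistant samples held 0.46, 0.56 and 0.45 FPKM and the parental samples 0.47, 0.23 and 0.73 FPKM, from 7 to 28 reads a sample. The HepG2 groups overlapped, with a ratio of means of 1.03. Resistant Huh7 thus held 425-fold more FGF19 RNA than resistant HepG2, and parental Huh7 32.1-fold more than parental HepG2. The log2 fold change in Huh7 was 3.70 ± 0.16 (SE) and lay between 3.16 and 3.80 under every alternative run.

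As FGF19 is a hormone of the ileal epithelium, 8 intestinal markers were examined beside it. Their summed level was 118 to 126 FPKM in resistant Huh7 and 46.2 to 49.9 FPKM in parental Huh7, against 25.3 to 41.9 FPKM in HepG2. In Huh7, the mean of VIL1, which encodes the microvillus protein villin, was 55.2 against 13.7 FPKM. That of the cadherin CDH17 was 52.7 against 26.0 FPKM, and that of the homeobox gene CDX2 was 12.9 against 5.64 FPKM. VIL1 and CDX2 were called higher in Huh7, and CDH17 was not. The sucrase-isomaltase gene SI went the other way, with 0.76 against 2.12 FPKM. In HepG2, VIL1 was 37.2 in resistant and 26.9 FPKM in parental cells, above parental Huh7, and made up most of the HepG2 sum. CDH17 and CDX2 were at most 0.17 and 0.09 FPKM there as group means. CDX1 and SLC10A2, the gene of the ileal bile acid transporter, were below 0.1 FPKM in all groups. FABP6 was at most 0.10 FPKM as a group mean. The mean of FABP2 was 0.05 in resistant and 0.12 FPKM in parental Huh7, and 0.68 and 0.84 FPKM in HepG2. The summed level of 8 cholangiocyte markers was 150 to 164 FPKM in resistant and 94.5 to 118 FPKM in parental Huh7. In HepG2 it was 275 to 306 and 207 to 247 FPKM. Of these markers, KRT7 and AQP1 were below 0.1 FPKM in all groups. In Huh7, the mean of the keratin KRT19 was 70.4 in resistant against 7.18 FPKM in parental cells and that of the adhesion molecule EPCAM 25.4 against 6.14 FPKM, both called higher, whereas SOX9 was 52.3 against 78.1 FPKM. The part of these genes in the FGF19 difference was not tested.

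**Figure D2:**
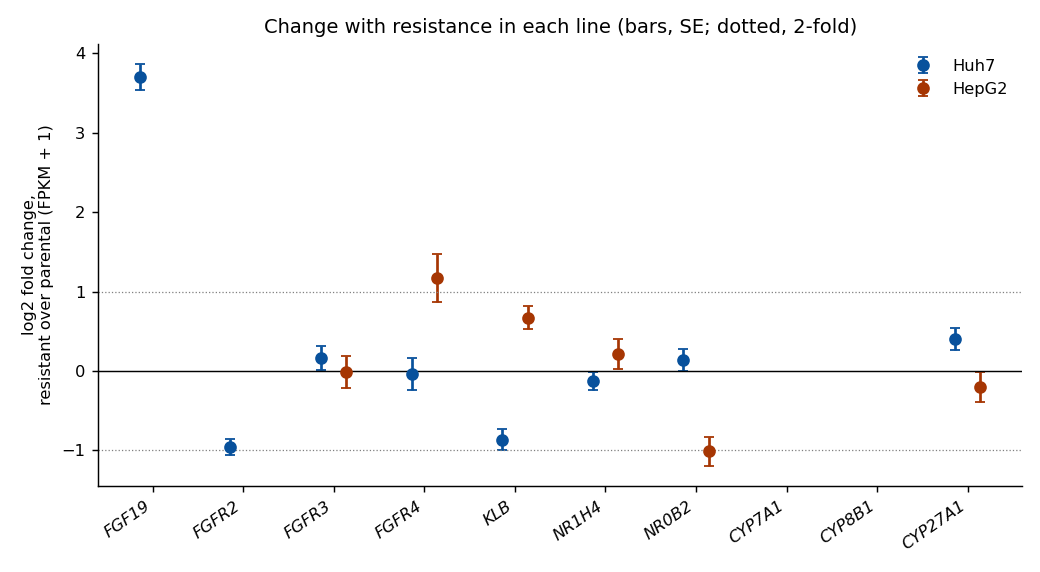
Log2 fold change, resistant over parental on the log2(FPKM + 1) scale, with its SE (bars, 3 against 3 samples) for Huh7 (blue) and HepG2 (brown); genes below the filter have no point. FGF19 reached 3.70 in Huh7, FGFR4 1.17 in HepG2, and KLB had opposite signs in the lines.

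KLB, on the plus strand of chr4:39406853-39451536, differed in opposite directions in the lines. In Huh7 it was 37.3, 50.1 and 42.1 FPKM in resistant and 77.6, 84.2 and 74.6 FPKM in parental samples, which is 1.83-fold lower with resistance. In HepG2 it was 19.0, 15.5 and 16.2 FPKM in resistant and 11.1, 9.27 and 10.3 FPKM in parental samples, which is 1.66-fold higher. Resistant and parental samples were separate in both lines. On the log2 scale the changes were -0.86 ± 0.13 and 0.67 ± 0.14 (SE), so neither passed the 2-fold threshold, and both kept their sign under all 16 alternatives in each line. The difference between the lines was smaller after selection: parental Huh7 held 7.71-fold more KLB RNA than parental HepG2, and resistant Huh7 2.55-fold more than resistant HepG2.

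FGFR4, on the plus strand of chr5:177086886-177098144 and the main hepatic receptor for FGF19, was the most abundant of the FGF receptor genes in all 4 groups. In HepG2 its level was 53.4, 120 and 104 FPKM in resistant samples, against 30.0, 39.5 and 47.3 FPKM in parental samples. The lowest resistant sample was just above the highest parental sample, and the means differed 2.38-fold (log2 fold change 1.17 ± 0.30, SE). The call was kept in 9 of 16 alternatives and was lost when the GC trend was taken off, without a filter, and without HepG2 parental replicate 1 or 2 or resistant replicate 2 or 3. Left-out samples moved the log2 fold change between 0.94 and 1.52. A NONCODE gene on the same strand overlaps FGFR4, with 5.70 FPKM in resistant and 2.19 FPKM in parental HepG2, and how reads were shared between the pair is not given.

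In Huh7, FGFR4 was 92.8, 81.0 and 125 FPKM in resistant and 126, 94.8 and 84.9 FPKM in parental samples. These groups overlapped, with a ratio of means of 0.98. The log2 fold change of -0.04 became -0.52 with the GC trend taken off. Resistant HepG2 therefore overlapped resistant Huh7, whereas parental Huh7 held 2.62-fold more FGFR4 RNA than parental HepG2. The NONCODE gene that overlaps FGFR4 was 11.7 FPKM in resistant and 6.87 FPKM in parental Huh7, so the unknown sharing of reads applies to Huh7 too.

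FGFR2, on the minus strand of chr10:121478334-121598458, was low in Huh7 and lower still in its resistant cells. It was 0.13, 0.14 and 0.09 FPKM in resistant samples, from 13 to 20 reads, against 1.13, 1.25 and 1.13 FPKM in parental samples, from 138 to 159 reads. The groups did not overlap and the means differed 9.95-fold. The log2 fold change was -0.96 ± 0.10 with a pseudocount of 1 and reached -3.36 among the alternatives, since the added 1 exceeds the resistant level. In HepG2, FGFR2 was supported by 0 to 6 reads in resistant and 2 to 3 reads in parental samples, so no fold is given.

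FGFR3, on the plus strand of chr4:1793293-1808872, was 25.2, 25.5 and 30.8 FPKM in resistant Huh7 and 30.0, 21.3 and 21.7 FPKM in parental Huh7. In HepG2 it was 9.04, 15.4 and 14.1 FPKM in resistant and 11.04, 14.05 and 13.2 FPKM in parental samples. Both pairs of groups overlapped, and the means differed 1.11-fold in Huh7 and 1.01-fold in HepG2.

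The summed FPKM of the 4 receptor genes, with FGFR1 added, was 132 ± 26.3 in resistant and 132 ± 27.0 in parental Huh7 (SD, n = 3). In HepG2 the sum was 115 ± 39.2 in resistant and 53.2 ± 10.0 in parental cells. The share of FGFR4 in the sum of a sample averaged 72.9% to 79.3% in the 4 groups. The share of FGFR1 in HepG2 was 9.29 ± 2.86% in resistant and 2.74 ± 0.28% in parental cells, while that of FGFR3 was 11.4 ± 1.11% and 24.3 ± 2.62%. KLB RNA per FGFR4 RNA was 0.45 ± 0.15 in resistant and 0.79 ± 0.16 in parental Huh7, and 0.21 ± 0.12 and 0.27 ± 0.08 in HepG2.

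**Figure D3:**
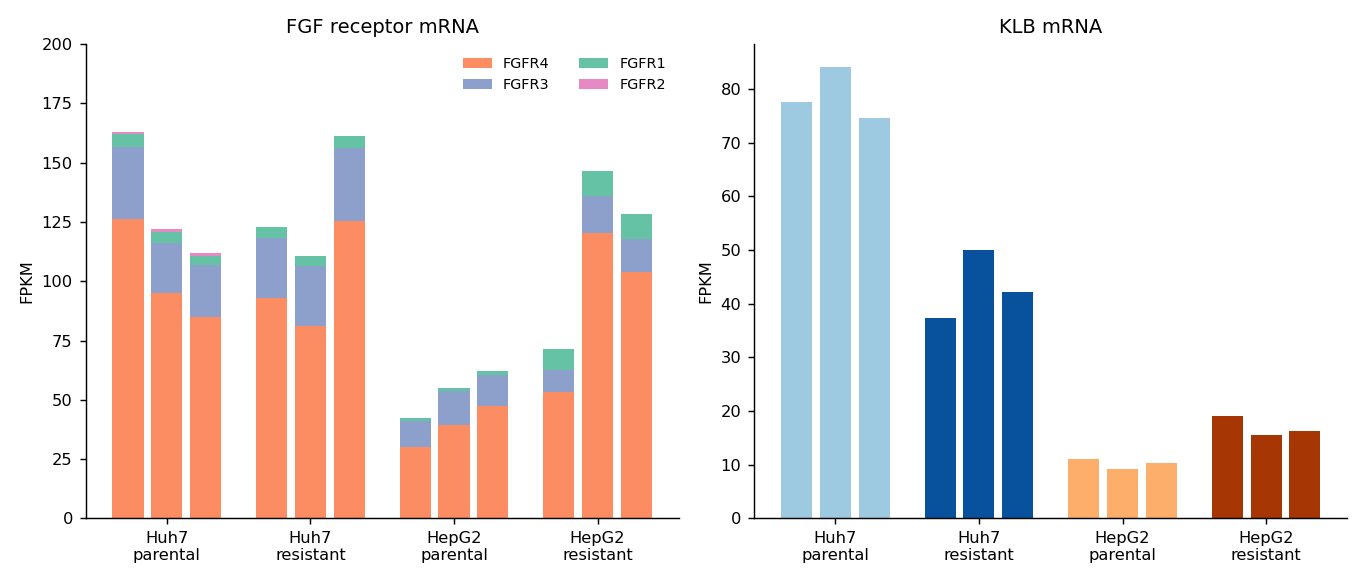
FPKM in each sample (1 bar each, 3 per group) of the FGF receptor genes stacked (left) and of KLB (right). FGFR4 makes up most of every bar; the HepG2 sum is 53.2 FPKM in parental and 115 FPKM in resistant cells, with 1 resistant sample at 71.4 FPKM.

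NR0B2, on the minus strand of chr1:26911489-26913966, encodes SHP, a co-repressor that FXR induces. In HepG2 it was 96.4, 147 and 122 FPKM in resistant and 222, 269 and 242 FPKM in parental samples. The groups did not overlap, and the level was 2.00-fold lower with resistance (log2 fold change -1.01 ± 0.18, SE). With a change this close to the threshold, the call was kept in 13 of 16 alternatives; it was lost with limma-voom and without HepG2 parental replicate 2 or resistant replicate 1, and the log2 fold change stayed between -1.16 and -0.85. In Huh7, NR0B2 was 19.9, 18.2 and 24.2 FPKM in resistant and 21.1, 18.6 and 16.4 FPKM in parental samples, and these groups overlapped. Parental HepG2 held 13.1-fold more NR0B2 RNA than parental Huh7, and NR0B2 ranked 79th of the 27249 genes in parental HepG2.

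NR1H4, on the plus strand of chr12:100473708-100564413, encodes FXR itself. It was 32.7, 37.8 and 36.4 FPKM in resistant and 34.7, 39.3 and 43.0 FPKM in parental Huh7. In HepG2 it was 22.4, 16.0 and 17.2 FPKM in resistant and 16.0, 12.6 and 19.0 FPKM in parental samples. Both pairs of groups overlapped, with ratios of means of 0.91 and 1.17. The antisense gene AC010200.2 overlaps NR1H4 outside its exons. Antisense NONCODE genes that overlap it summed to 8.37 FPKM in resistant and 23.0 FPKM in parental Huh7, and whether reads were counted by strand is not given in the sources used here.

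CYP7A1 RNA, from a gene on the minus strand of chr8:58490178-58500236, was hardly detectable. It was supported by 0 to 1 read in resistant and 1 to 3 reads in parental Huh7, and by 4 to 6 and 1 to 6 reads in HepG2. A difference was not detectable at this depth, and with 3 reads as the floor no fold is given for Huh7.

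CYP8B1, on the minus strand of chr3:42856005-42876165, encodes the sterol 12-alpha-hydroxylase that directs synthesis to cholic acid. It lay below the filter in both lines. In HepG2 it was 0.66, 0.65 and 0.71 FPKM in resistant samples, from 50 to 54 reads, and 0.10, 0.42 and 0.16 FPKM in parental samples, from 6 to 23 reads. In Huh7 it was 0.14, 0.13 and 0.12 FPKM, from 10 to 12 reads, against 0.05, 0.04 and 0.07 FPKM, from 3 to 5 reads. Resistant and parental samples were separate in both lines, with ratios of means of 2.97 and 2.43. Exons of ACKR2 on the other strand cover 3.2% of its exonic bases, so part of these few reads could belong to that gene.

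CYP27A1, on the plus strand of chr2:218781749-218815293, encodes the mitochondrial sterol 27-hydroxylase that opens the alternative pathway. It was 30.1, 22.5 and 26.1 FPKM in resistant and 21.0, 20.6 and 16.9 FPKM in parental Huh7, groups that did not overlap. The log2 fold change of 0.41 ± 0.14 (SE) became -0.13 once the GC trend of the libraries was taken off. In HepG2 it was 92.9, 125 and 114 FPKM in resistant and 111, 160 and 114 FPKM in parental samples, which overlapped. CYP27A1 was thus the enzyme of the 3 with the highest level in each group, and parental HepG2 held 6.56-fold more of it than parental Huh7.

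Groups that did not overlap were found for 4 of the 8 tested genes in Huh7 (FGF19, FGFR2, KLB and CYP27A1), beside 74.5% of all genes. FGFR2 was tested through its parental samples alone, which reached 1 FPKM, so its separation was built in. In HepG2 they were found for 3 of the 6 tested genes (FGFR4, KLB and NR0B2), beside 40.4%. The order of the mean levels also differed between lines. In resistant Huh7 it ran from FGF19 over FGFR4 and KLB to NR1H4, and in parental Huh7 from FGFR4 over KLB and NR1H4 to FGFR3. In HepG2 it began with NR0B2, CYP27A1 and FGFR4 in both states. In resistant HepG2 the levels of these 3 genes overlapped, as did those of KLB and NR1H4 and of FGFR3 and CYP27A1 in resistant Huh7.

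Sequence before the start of transcription, from RefSeq (GRCh38.p14), is shown for 3 genes. KLB is shown because its change had opposite signs in the lines, NR1H4 because it encodes the bile acid receptor, and SLC51B, the gene of a bile acid exporter subunit, because its change in Huh7 was the largest among the bile acid transport genes, as described below. Each line gives the 250 bases before a RefSeq start, on the strand of the gene, with motif matches in capitals. For NR1H4 this start is an internal one: the window lies inside the gene span of chr12:100473708-100564413 and not at its first base.
KLB, chr4:39406680-39406929, plus strand: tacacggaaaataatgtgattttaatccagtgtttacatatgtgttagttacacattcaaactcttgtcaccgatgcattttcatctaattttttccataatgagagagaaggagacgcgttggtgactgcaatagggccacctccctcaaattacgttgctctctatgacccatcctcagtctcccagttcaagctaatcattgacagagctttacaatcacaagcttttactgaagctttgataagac
NR1H4, chr12:100503110-100503359, plus strand: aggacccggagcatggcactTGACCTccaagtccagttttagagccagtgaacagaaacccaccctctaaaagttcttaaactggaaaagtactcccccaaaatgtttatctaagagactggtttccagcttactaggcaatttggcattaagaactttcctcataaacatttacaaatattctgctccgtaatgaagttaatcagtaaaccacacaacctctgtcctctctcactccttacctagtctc
SLC51B, chr15:65045137-65045386, plus strand: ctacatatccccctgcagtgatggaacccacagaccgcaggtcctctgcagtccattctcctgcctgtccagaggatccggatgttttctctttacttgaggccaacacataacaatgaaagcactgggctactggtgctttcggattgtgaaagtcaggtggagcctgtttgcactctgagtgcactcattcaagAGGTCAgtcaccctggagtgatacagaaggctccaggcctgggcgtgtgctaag
Both strands were searched, from 250 bases before to 50 after the start, for the nuclear receptor half-site AGGTCA, for its inverted repeat with 1 base between (AGGTCANTGACCT), and for motifs of NR5A2 (TCAAGGTCA, which contains the half-site) and HNF4A (CAAAGTCCA). The search also covered windows that are not shown: FGFR2 (5), FGFR4 (2), and 1 each for FGFR3, CYP27A1, ANO1 and FGF18. Counted from the start, the half-site was found in SLC51B at -54 to -49 and in NR1H4, on the other strand, at -230 to -225. It was also found in window 4 of the 5 FGFR2 windows, at -57 to -52. No other window searched, that of KLB included, held a match to any of these motifs. Of 35116 promoters, 13.8% held the half-site, 0.384% the HNF4A motif and 0.353% the NR5A2 motif, and the inverted repeat was found in 0. A match in these windows is a description of letters and not a bound site.

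The other genes of the pathway were taken from 7 lists with 111 genes, written with earlier results of these data known. In Huh7, 10 of 70 tested genes were called higher and 8 lower, beside 8.59% and 14.0% of all genes. In HepG2, 4 of 69 were called higher and 6 lower, beside 3.29% and 2.98%. The change differed between the lines, by the interaction of line and resistance, for 30 of 77 tested genes, beside 28.8% of all genes. The median log2 fold change of the lists was 0.20 in Huh7, beside -0.04 for all genes, and 0.06 in HepG2, beside 0.12. After the GC trend was taken off, 7 higher and 1 lower calls were left in Huh7, while those of all genes went from 1079 higher and 1759 lower to 701 and 786. Of the called genes, 5 in Huh7 (FGF18, ANO1, FLRT2, MALRD1 and NR1I2) and 1 in HepG2 (UGT2B4) passed the filter only through the group where they were higher, so a difference was built into their entry to the test and the counts hold them for that reason. They were also called without the filter.

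Among 17 other FGF ligands, FGF18 was the 1 with a mean of at least 1 FPKM in any group. FGF18, a ligand known for its role in bone and lung development, rose in Huh7: it was 6.37, 5.30 and 5.99 FPKM in resistant and 0.36, 0.45 and 0.25 FPKM in parental samples. The means differed 16.6-fold, with a log2 fold change of 2.35 ± 0.12 (adjusted p = 5.5e-06), and FGF18 entered the test through its resistant samples alone. FGF21, the other hepatic hormone that uses beta-klotho, was at most 0.21 FPKM as a group mean.

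Of 21 genes of FGF receptor signalling, 17 were tested in each line. FGFR1, a receptor that also pairs with beta-klotho, rose in HepG2 from 1.27, 1.54 and 1.52 FPKM to 8.97, 10.6 and 10.4 FPKM, a 6.93-fold difference (log2 fold change 2.17 ± 0.14, adjusted p = 0.00014). In Huh7 it was 4.60 and 4.75 FPKM, and the interaction was -2.20 ± 0.16 (adjusted p = 2.3e-06). SULF2, an extracellular heparan sulfate sulfatase, rose in HepG2 as well, from 1.72 to 17.6 FPKM (log2 fold change 2.78 ± 0.14, adjusted p = 6.3e-05). SDC4, a heparan sulfate proteoglycan, fell there from 203 to 25.1 FPKM, by 2.94 ± 0.19 on the log2 scale (adjusted p = 0.00016). In Huh7, SULF2 was 6.84 FPKM in resistant and 6.85 FPKM in parental cells, and SDC4 was 157 and 114 FPKM.

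The Huh7 calls in this list were 1 higher and 6 lower, beside 8.59% and 14.0% of all genes. On the log2(FPKM + 1) scale, the 4 with the largest change were FLRT3, GAB1, SDC1 and SOS1; by the ratio of means FLRT2 was first, 11.7-fold lower at 0.12 against 1.39 FPKM. FLRT3, a membrane protein that binds FGF receptors, fell from 60.1 to 18.2 FPKM (adjusted p = 2.7e-05). The docking protein GAB1 fell from 15.0 to 5.05 FPKM (adjusted p = 4.5e-05), and the exchange factor SOS1 from 13.2 to 4.92 FPKM (adjusted p = 9.7e-05). The proteoglycan SDC1 rose from 18.5 to 48.2 FPKM (adjusted p = 6.3e-05). FRS2, the adaptor that binds the receptors directly, fell from 38.7 to 15.9 FPKM (adjusted p = 6.5e-05). FLRT2 and PTPN11 were the other calls, and these last 3 genes are named after their values were seen. All 7 calls were lost once the GC trend was taken off, and PTPN11 also with median-ratio scaling and without Huh7 parental replicate 2 or 3 or resistant replicate 3.

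Of 10 feedback inhibitors and ETS targets of FGF signalling, 9 were tested in each line. In Huh7, 2 were called higher and 0 lower, beside 8.59% and 14.0% of all genes, and 6 of the 9 had a positive log2 fold change. In HepG2, 0 were called, and 3 of the 9 had a positive log2 fold change. DUSP6, a phosphatase of ERK, was 34.4, 39.0 and 37.3 FPKM in resistant and 15.5, 14.4 and 14.9 FPKM in parental Huh7 (log2 fold change 1.25 ± 0.10, adjusted p = 3.2e-05). The transcription factor gene ETV4 rose from 11.3 to 27.0 FPKM (log2 fold change 1.19 ± 0.14, adjusted p = 0.00016), a call that was lost with the GC trend taken off. In Huh7, SPRY4 was 30.4 against 18.2 FPKM and ETV5 69.7 against 51.2 FPKM. Lower in resistant Huh7 were SPRY2, with 17.3 against 31.2 FPKM, SPRY1, with 0.70 against 1.19 FPKM, and ETV1, with 2.88 against 5.07 FPKM. IL17RD, which was not tested, was 0.28 against 0.39 FPKM. In HepG2, DUSP6 was 28.4 in resistant and 37.8 FPKM in parental cells, and the interaction for DUSP6 was 1.65 ± 0.14 (adjusted p = 7.2e-06).

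**Figure D4:**
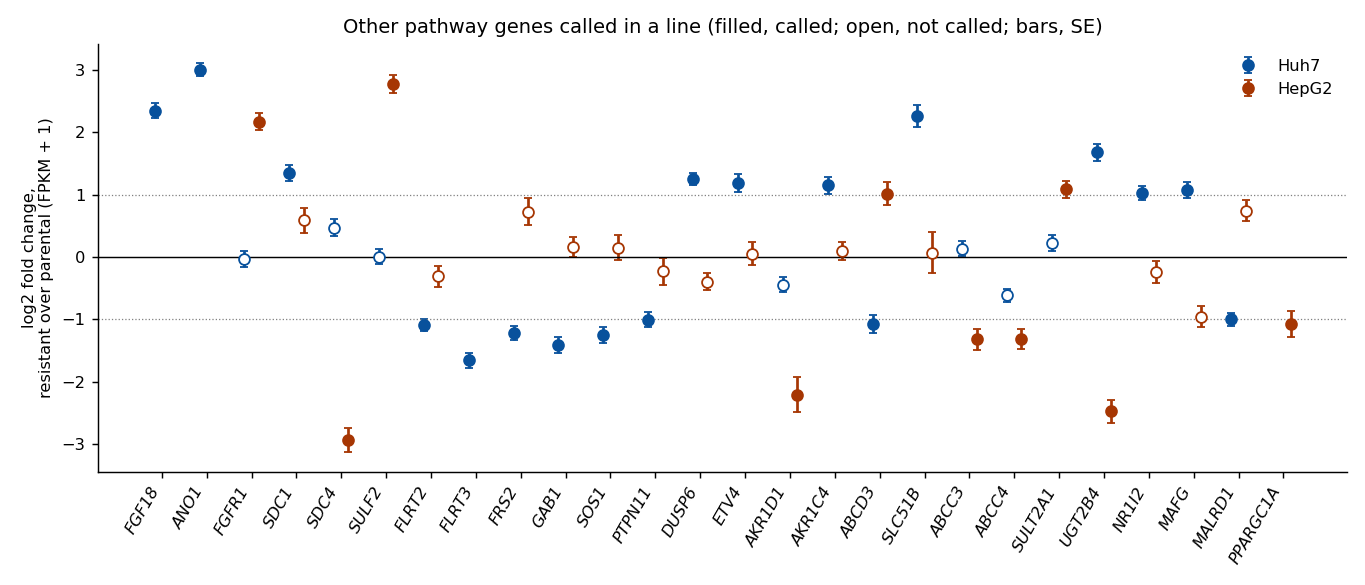
Log2 fold change with its SE (bars, 3 against 3 samples) of the 26 other pathway genes called in at least 1 line, for Huh7 (blue) and HepG2 (brown); filled points were called. UGT2B4 rose in Huh7 and fell in HepG2, and ABCD3 fell in Huh7 and rose in HepG2.

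Of 18 other enzymes and carriers of bile acid synthesis, 10 were tested in each line. AKR1C4, a hydroxysteroid dehydrogenase, rose in Huh7 from 0.83 to 3.05 FPKM (log2 fold change 1.15 ± 0.14, adjusted p = 0.00015). AKR1D1, the 5-beta-reductase of the pathway, fell in HepG2 from 9.92, 12.5 and 22.1 FPKM to 2.69, 2.56 and 1.62 FPKM, by 2.21 ± 0.28 on the log2 scale (adjusted p = 0.0018). The peroxisomal transporter gene ABCD3 fell in Huh7 from 31.8 to 14.4 FPKM (adjusted p = 0.00026) and rose in HepG2 from 15.4 to 32.1 FPKM (adjusted p = 0.0085). Its interaction was -2.09 ± 0.24 (adjusted p = 5.0e-05). The Huh7 call of ABCD3 was lost with the GC trend taken off and without Huh7 parental replicate 3, and the HepG2 call in 6 of 16 alternatives, among them without HepG2 parental replicate 2 or resistant replicate 1.

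Of 17 bile acid transport genes and FXR targets, 11 were tested in Huh7 and 12 in HepG2. In Huh7, 2 were called higher and 0 lower, beside 8.59% and 14.0% of all genes. The log2 fold change was positive for 6 of the 11. In HepG2, 1 was called higher and 3 lower, beside 3.29% and 2.98%. SLC51B, the beta subunit of the basolateral bile acid exporter and an FXR target, rose in Huh7: it was 53.4, 42.0 and 54.9 FPKM in resistant and 12.5, 8.08 and 8.69 FPKM in parental samples. The log2 fold change was 2.26 ± 0.17 (adjusted p = 2.9e-05), and SLC51B in HepG2 was 4.56 and 4.59 FPKM. Its partner SLC51A was 2.28 against 1.20 FPKM in Huh7 and was not called. Lower in resistant Huh7, and also not called, were ABCB4 (1.72 against 3.79 FPKM), SLC10A1 (1.05 against 2.66 FPKM) and ATP8B1 (2.39-fold). UGT2B4, which glucuronidates bile acids, rose in Huh7 from 14.9 to 50.2 FPKM (log2 fold change 1.67 ± 0.13, adjusted p = 3.4e-05) and fell in HepG2 from 6.88 to 0.39 FPKM, by 2.48 ± 0.19 on the log2 scale (adjusted p = 0.00021). The interaction for UGT2B4 was 4.15 ± 0.23 (adjusted p = 3.6e-07). In HepG2, UGT2B4 entered the test through its parental samples alone.

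In HepG2 the efflux pump genes ABCC3 and ABCC4 fell from 26.0 to 9.70 FPKM (adjusted p = 0.0019) and from 5.75 to 1.69 FPKM (adjusted p = 0.0016). The sulfotransferase gene SULT2A1 rose from 61.1 to 130 FPKM (log2 fold change 1.08 ± 0.13, adjusted p = 0.0017), a call lost with the GC trend taken off and with median-ratio scaling, where its log2 fold change, at its lowest 0.97, fell just below the threshold. ABCB11, the canalicular bile salt export pump and a target of FXR, was at most 0.31 FPKM as a group mean.

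Of 19 regulators of CYP7A1 and CYP8B1, 15 were tested in Huh7 and 17 in HepG2. NR1I2, the xenobiotic receptor PXR, rose in Huh7 from 0.70 to 2.44 FPKM (adjusted p = 0.00010). MAFG, a repressor of bile acid synthesis genes, rose from 4.93 to 11.4 FPKM (adjusted p = 0.00015). MALRD1 fell from 1.44 to 0.22 FPKM (adjusted p = 9.0e-05). These 3 calls were lost with the GC trend taken off, and that of NR1I2 also without Huh7 parental replicate 1. NR1I2 entered the test through its resistant samples alone, and MALRD1 through its parental samples alone. The call of MALRD1, whose log2 fold change of -1.001 lay at the threshold, was kept in 7 of 13 alternatives and also lost with median-ratio and upper-quartile scaling and without Huh7 resistant replicate 1 or 3. In HepG2, PPARGC1A, a co-activator of metabolic genes, fell from 11.7 to 5.01 FPKM (log2 fold change -1.08 ± 0.21, adjusted p = 0.011), and this call was lost without HepG2 parental replicate 1 or resistant replicate 2. In Huh7, PPARGC1A lay below the filter and was not tested. Its mean there was 8.75-fold lower in resistant cells, in groups that did not overlap. HNF4A, an activator of both enzyme genes, was 80.2 against 46.9 FPKM in Huh7 and 77.5 against 76.9 FPKM in HepG2.

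The genes beside FGF19 on chromosome 11 were examined over 804 kb before and 716 kb after it. Of 13 genes, 7 were tested in Huh7. ANO1, a chloride channel gene 432 kb away, was the 1 called higher, beside 8.59% of all genes, and 0 were called lower. ANO1 rose from 0.08, 0.15 and 0.12 FPKM to 7.93, 7.93 and 8.06 FPKM, 67.5-fold (log2 fold change 3.01 ± 0.10, adjusted p = 2.8e-06), and it too entered the test through its resistant samples alone. An antisense gene covers 10.7% of its exonic bases. In HepG2, ANO1 was 0.02 FPKM in both groups.

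CCND1, which encodes cyclin D1 and lies 53.7 kb from FGF19, was 101 against 80.4 FPKM in Huh7 (adjusted p = 0.053) and 60.2 against 49.4 FPKM in HepG2 (adjusted p = 0.21). ORAOV1, between CCND1 and FGF19, was 5.82 against 4.71 FPKM in Huh7. The other genes tested in Huh7 were IGHMBP2, with 13.1 against 9.01 FPKM, TPCN2, with 3.93 against 3.46, PPFIA1, with 17.3 against 21.3, and CTTN, with 18.3 against 16.1. As group means, FGF3 and FGF4 were at most 0.02 FPKM, MYEOV at most 0.74 and MRGPRF at most 0.18. The group means of MRPL21, at 0.35 FPKM or less, and FADD, at 0.03 FPKM or less, were also near 0. Most cells use both genes, so a value near 0 in these tables may be a failed estimate.

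**Figure D5:**
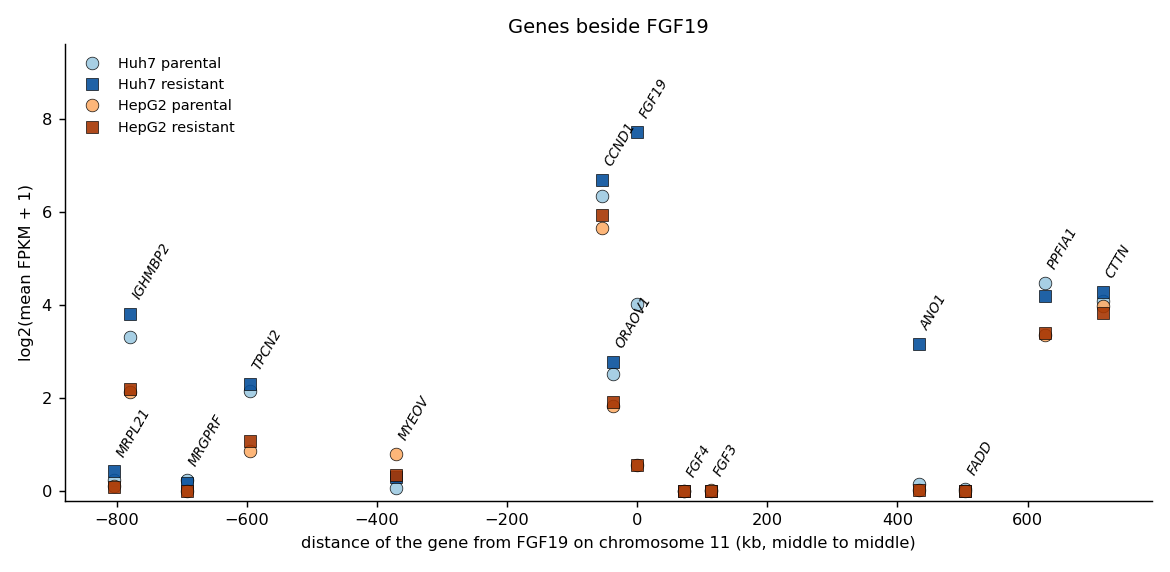
Mean level, log2(mean FPKM + 1) of 3 samples, of the genes beside FGF19 against their distance from it in kb (middle to middle), with parental groups as circles and resistant groups as squares. In Huh7 (blue), FGF19 and ANO1 stand well apart between the 2 states, whereas CCND1 and ORAOV1 lie close together.

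The genes with the pattern most like that of FGF19, FGFR4 and KLB were sought among 13800 genes by Pearson's r of log2(FPKM + 1) over the 12 samples, which fall into 4 groups and share libraries, so r is a description. MGLL (r = 0.999), TMEM176B (0.998) and ABLIM3 (0.998) were nearest to FGF19. MGLL, which encodes monoglyceride lipase, was 29.9 FPKM in resistant and 4.22 FPKM in parental Huh7, and 0.07 FPKM in both HepG2 groups. CHST13 (0.980), SLC26A1 (0.979) and GPER1 (0.977) were nearest to FGFR4, and CHST13 was 39.5 FPKM in resistant and 15.0 FPKM in parental HepG2. SSH2 (0.995), ETV1 (0.993) and MSMO1 (0.993) were nearest to KLB. MSMO1, a sterol synthesis enzyme gene, was 82.2 against 196 FPKM in Huh7 and 31.4 against 18.0 FPKM in HepG2.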

How the data were processed

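RNA of 3 resistant and 3 parental samples each of Huh7 and HepG2 was analysed, grouped by the sample titles. The authors deposited 1 table per sample with values for 98711 genes, 27249 of them with Ensembl identifiers, and made these FPKM by steps that are not given in the sources used here, apart from bcl2fastq and GRCh38 in the submitters' processing notes. The unit is not stated: value times exon length (GENCODE release 29) falls on multiples of 1 step per sample, and 96.4% of values of up to 2000 reads lay within 0.05 of a whole read. RPKM and FPKM cannot be told apart. The extraction kit in the labels is not that of the methods.

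A gene entered the test of a line where 3 or more of the 6 samples reached 1 FPKM. Tests were two-sided with limma 3.58.1 (R 4.3.3, trend) on log2(FPKM + 1), and p-values were adjusted by Benjamini-Hochberg over 12554 genes in Huh7 and 11762 in HepG2, and the interaction over 13800 genes in 12 samples. The fit was tested on simulated data. The members and the lists were chosen with earlier results of these data known. Named are all members, the called genes of each list (at most the 4 largest changes per line), genes beside FGF19, FGFR1, and FGF ligands with a mean of at least 1 FPKM. FGF21, SPRY1, SPRY2, SPRY4, ETV1, ETV5, IL17RD, SLC51A, SLC10A1, ABCB4, ATP8B1, ABCB11, HNF4A, FRS2, FLRT2, PTPN11 and the single markers were named after their values were seen. Alternatives were a pseudocount of 0.1, no filter, upper-quartile and median-ratio scaling, no trend, limma-voom on reads calculated back, a joint fit of all 12 samples, a block for the replicate number, a lowess GC trend (span 0.3) taken off each library, and leaving out each sample. Counts of reads and the floor of 3 reads cover counting error only, since the reads carry no molecular identifiers and PCR copies count again. RefSeq promoter windows were found for 6 of the 10 members. Of the motifs and listed genes, 1 item is not reported here.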

Additional observations from a re-analysis of the deposited data

Results flagged for a closer look

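KLB stood out because all resistant samples lay below all parental samples in Huh7 (ratio of means 0.547) and above them in HepG2 (1.66). The log2 fold change in Huh7 minus that in HepG2 was -1.54 ± 0.18 (SE); as KLB is among the genes chosen on these values, the difference between the lines is given without a p-value.

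For 20 other pathway genes called in a line, the log2 fold change in Huh7 minus that in HepG2 passed the interaction test of limma. The thresholds were an adjusted p-value under 0.05 and a difference beyond 1. These 20 were picked by their call in a line, which favours a difference between the lines. Without that choice, 30 of 77 tested pathway genes passed, beside 28.8% of all genes. Among FGF ligands and signalling genes, the difference was 2.25 for FGF18, 3.41 for SDC4, 1.65 for DUSP6 and 1.14 for ETV4. It was -2.20 for FGFR1, -2.77 for SULF2, -1.95 for FRS2, -1.57 for GAB1, -1.40 for SOS1 and -1.86 for FLRT3. Among bile acid enzymes and transporters it was 1.76 for AKR1D1, 1.06 for AKR1C4, 2.19 for SLC51B, 1.46 for ABCC3, 4.15 for UGT2B4 and -2.09 for ABCD3. Among regulators it was 1.26 for NR1I2, 2.03 for MAFG and -1.74 for MALRD1. For ANO1, beside FGF19, it was 3.00. The differences for ETV4, GAB1 and SOS1 fell below the threshold with the GC trend taken off, and that for AKR1C4 without HepG2 parental replicate 1 or Huh7 parental replicate 3. FGF18, FLRT3 and ANO1 lay below the filter in HepG2 alone. FGF18 and ANO1 entered the interaction test only through the resistant Huh7 samples, so a difference was built into their entry.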

How the results depend on the processing

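With limma-voom on reads, 4278 genes were called in Huh7 in place of 2838, and 1176 in HepG2 in place of 737. With the GC trend taken off, 1487 genes were called in Huh7, and 8 pathway genes in place of 18; with the replicate block as well, these counts were 1484 and 8. The cause was not tested. With a pseudocount of 0.1 the counts were 4187 in Huh7 and 1101 in HepG2. In HepG2 the 387 higher and 350 lower calls became 279 and 444 with the GC trend taken off, 285 and 428 with median-ratio scaling, and 309 and 406 with upper-quartile scaling. Leaving out each sample gave 2133 to 3006 calls in Huh7 and 590 to 804 in HepG2, 13 to 19 and 8 to 11 pathway genes, and 27 to 33 pathway genes by interaction.

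Samples of the same replicate number did not deviate together in every pair: the correlations of their deviations were 0.084, 0.062 and -0.228 in Huh7 and 0.246, 0.437 and -0.011 in HepG2, not every sample correlated best with its own number, and the numbers were not taken as pairs. With the replicate number as a block, 2841 genes were called in Huh7 and 779 in HepG2, and 18, 11 and 30 pathway genes in Huh7, in HepG2 and by interaction.

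FGF19 and KLB in Huh7 and FGFR4, KLB, CYP27A1, NR1H4 and NR0B2 in HepG2 kept their sign under every alternative run. FGFR2 in Huh7 kept its sign in the 13 alternatives where it was tested, but not without a parental sample, where it fell below the filter. It entered the test through its parental samples alone, so its sign was built in. In Huh7 the sign of FGFR3, CYP27A1, NR1H4 and NR0B2 changed with the GC trend taken off and that of FGFR4 with left-out samples. FGFR4 in Huh7 kept its sign with the GC trend taken off, but its log2 fold change moved from -0.04 to -0.52. In HepG2 the sign of FGFR3 changed with limma-voom and left-out samples. Depth limits CYP7A1, CYP8B1 and, in HepG2, FGF19 and FGFR2, each with fewer than 60 reads a sample.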
